A study of Ovis aries with 20 samples.

Results

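Secretoglobins and surfactant-associated genes of the airway were followed in the developing sheep trachea, in animals with cystic fibrosis (CF) and in normal animals (WT). The 5 genes were SCGB3A2, SCGB1A1, SFTA2, SFTPB and SFTPD, taken by symbol from 24478 genes in the count tables. They were chosen by their CPM levels already seen in these libraries: SCGB3A2 as a top gene of several of them, SCGB1A1 as a late gene and the others as low surfactant-associated genes. Their levels and their course with age are therefore a description with no test, and tests are given for CF against WT. All 5 passed the filter on low counts, which asks for enough counts in the libraries of at least a group.

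Secretoglobins are small proteins secreted by the non-ciliated cells of the airway lining. SCGB1A1 is the classic product of club cells, the secretory cells of the smaller airways in mouse and human, and SCGB3A2 is a secretoglobin of the developing mouse airway that the transcription factor NKX2-1 drives. Pulmonary surfactant is best known from alveolar type 2 cells, which store it in lamellar bodies. Its protein SFTPB is needed to spread the lipid film, and in human and mouse it is also made by secretory cells of the distal airway. SFTPD is a collectin, a soluble lectin that binds sugars on microbes, and SFTA2 is a small secreted protein found in human lung.

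The tissue was frozen trachea, labelled epithelial, of CF animals and of WT animals labelled as healthy, at days 65, 80, 100, 120 and 147, the last being birth. Each of the 10 groups of genotype and age held 2 libraries, 20 in all. The sources used here state neither the allele behind the CF label nor the sex of the animals. Total counts per library ran from 42372433 to 87651829. The sample identifiers were the same for both CF libraries at birth and for both WT libraries at day 100, and another was shared by CF day 100 replicate 2 and WT day 65 replicate 2, which differ in genotype and age by their titles. Where pairs of a shared identifier were summed below, only those of CF at birth and of WT at day 100 were. The libraries of the other identifier were left as they were. Nothing in the sources says that the replicates came from separate animals, so p-values measure only the spread between these libraries, which may be technical.

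Markers of other tissues set 4 libraries apart. The summed level of 16 thyroid genes was 112000 CPM in WT day 80 replicate 2 and at most 3940 CPM in any other library, where CPM is the count relative to the scaled library size. The skeletal muscle list reached 46100 CPM in CF day 80 replicate 1, the liver list 21100 CPM in CF day 65 replicate 2, and the thymus list 591 CPM in WT day 65 replicate 2. The thymus list also stood at 473 CPM in WT day 80 replicate 2 and at most at 55.4 CPM elsewhere, and the skeletal muscle list also at 1310 CPM in WT day 65 replicate 2 and at most at 139 CPM elsewhere. The summed level of 35 epithelial genes ran from 2660 CPM in CF day 80 replicate 1 to 10300 CPM among CF libraries, and from 3660 CPM in WT day 80 replicate 2 to 13900 CPM among WT libraries. CFTR, the channel lost in cystic fibrosis, was counted in every library, at 4.30 to 37.1 CPM in CF and 10.2 to 37.8 CPM in WT, and such a whole-gene count checks no allele. In pieces of tissue, fewer cells of a type and less RNA per cell cannot be told apart.

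SCGB3A2 was the gene of the highest level per length in most libraries. The gene lies on chromosome 5 from 56499964 to 56503442, plus strand, with 490 bp in 3 exon blocks, by the count tables' own coordinates (build not stated). In CF its level was 1374 and 695 CPM at day 65, 939 and 3294 CPM at day 80, 3335 and 5032 CPM at day 100, 19281 and 9645 CPM at day 120, and 25332 and 27086 CPM at birth. In WT it was 1282 and 409 CPM at day 65, 20102 and 1019 CPM at day 80, 15580 and 19684 CPM at day 100, 14896 and 20484 CPM at day 120, and 16619 and 82377 CPM at birth. The CF libraries climbed at each age, with an overlap between days 65 and 80 only. The WT libraries were already near their later level in 1 library of day 80, did not differ beyond their spread between days 100 and 120, and lay apart at birth, with 1 library inside the range of days 100 and 120 and the other far above it.

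These levels rest on large counts, 40619 to 1897288 in CF and 20385 to 3727727 in WT. By TPM (the count per exon length, scaled to the same total in every library), SCGB3A2 ranked above all other genes in 13 libraries, 6 of CF and 7 of WT. These were all libraries of days 100, 120 and 147 and WT day 80 replicate 1. Its largest share of all counts was 2.65% in CF, in replicate 1 at birth, and 6.48% in WT, in replicate 2 at birth. The mean level at birth was 25.3 times that of day 65 in CF and 58.6 times in WT.

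The climb was also seen against the epithelium. As a percentage of the summed CPM of the 35 epithelial genes, the mean of SCGB3A2 in CF for days 65, 80, 100, 120 and 147 was 13.3%, 41.4%, 51.7%, 168% and 256%. In WT it was 11.7%, 126%, 130%, 184% and 500% for the same ages (n = 2 each). Relative to these genes the CF mean was the lower at days 80, 100, 120 and 147 and the higher at day 65. By library the genotypes overlapped at days 65, 80 and 120 and were apart at days 100 and 147. How many other genes were apart on this scale was not counted.

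**Figure D1:**
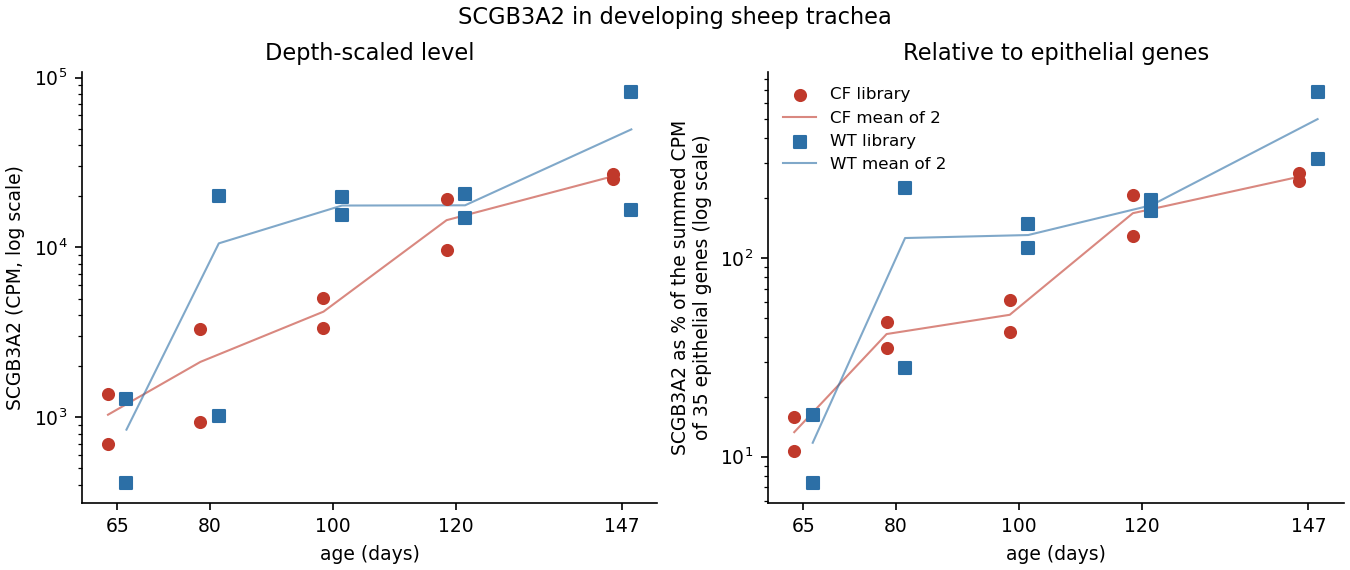
SCGB3A2 by age in days (to scale, CF points shifted left and WT points right) as CPM (left, log scale) and as a percentage of the summed CPM of 35 epithelial genes (right, log scale). Each point is a library, lines join the means of 2; CF climbs to 25332 and 27086 CPM at birth, while WT is at 15580 and 19684 CPM at day 100 and spreads from 16619 to 82377 CPM at birth.

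SCGB1A1 had at most 12 counts in a library at days 65 and 80 and was highest at birth. The table gives it to chromosome 21 from 40088778 to 40092079, plus strand, with 3 exon blocks of 276 bp. That is 92 codons with none left over, so the model may hold the coding part alone and miss reads from the untranslated ends. In CF the counts were 4 and 0 at day 65, 0 and 12 at day 80, 10 and 14 at day 100, 78 and 26 at day 120, and 109 and 234 at birth. In WT they were 2 and 4 at day 65, 2 and 0 at day 80, 22 and 40 at day 100, 24 and 0 at day 120, and 221 and 894 at birth. In both genotypes the 2 libraries at birth were the highest, and in each genotype 2 libraries had no count.

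Scaled for depth, SCGB1A1 at birth stood at 1.92 and 3.34 CPM in CF and at 4.12 and 19.8 CPM in WT. In a library, a count of 0 allows up to 3 counts, or 0.0693 CPM in CF day 80 replicate 1, the shallowest of those with none; this covers counting error only. Low counts in these tables were mostly even (70.7% to 85.3% of the values from 1 to 20), so the counts may stand for fewer independent molecules. The mean at birth was 2.81 times that of day 120 in CF and 56.0 times in WT, where a day 120 library had no count. SCGB3A2 stayed far above it: at birth the SCGB3A2 level per length was 7446 and 4567 times that of SCGB1A1 in CF, and 2274 and 2349 times in WT.

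SFTPD also grew from day 80 on in CF, and in WT it had a separate high point at day 100. It lies on chromosome 25 from 35060767 to 35150456, plus strand, with 2203 bp in 19 exon blocks. TMEM254, on the minus strand, overlaps this span and shares 0 exon bases with SFTPD. In CF the level of SFTPD was 3.15 and 2.42 CPM at day 65, 0.462 and 1.89 CPM at day 80, 2.65 and 2.16 CPM at day 100, 5.87 and 4.53 CPM at day 120, and 8.81 and 9.82 CPM at birth. In WT it was 0.938 and 1.48 CPM at day 65, 0.729 and 0.601 CPM at day 80, 12.3 and 11.7 CPM at day 100, 2.61 and 3.57 CPM at day 120, and 8.23 and 18.3 CPM at birth. The WT pair of day 100 was above every CF library and every WT library but 1 at birth. That pair shares a sample identifier, so it may be a single source. Counts were 20 to 688 in CF and 40 to 1028 in WT.

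SFTA2 was low in CF at all ages and had a peak in WT in mid-development. It lies on chromosome 20 from 27112461 to 27113506, plus strand, with 686 bp in 3 exon blocks. In CF its level was 3.90 and 2.55 CPM at day 65, 1.34 and 2.61 CPM at day 80, 2.15 and 1.45 CPM at day 100, 2.83 and 2.40 CPM at day 120, and 1.21 and 1.40 CPM at birth. In WT it was 4.16 and 1.78 CPM at day 65, 9.05 and 22.4 CPM at day 80, 12.7 and 10.6 CPM at day 100, 3.73 and 3.21 CPM at day 120, and 1.88 and 2.34 CPM at birth. No CF library reached the 4 WT libraries of days 80 and 100, and from day 80 on each CF pair was below its WT pair. The WT library with thyroid genes held the highest SFTA2 of all. The other WT library of day 80 and both of day 100, with thyroid sums of 2880, 3540 and 2960 CPM, were next. Sums as large, 3940 and 3930 CPM, were seen in replicate 2 of WT days 120 and 147, where SFTA2 was at 3.21 and 2.34 CPM. The thyroid list also holds TFF3, which is on the list for club and secretory cells too. Of the thyroid list, TG and PAX8 stood at 106000 and 326 CPM in WT day 80 replicate 2. In the other WT library of day 80 and both of day 100, TG was at 1.64, 0.425 and 0.616 CPM. There PAX8 was at 1.86, 1.88 and 2.09 CPM. A part of thyroid tissue in these SFTA2 levels was not tested. Counts were 58 to 275 in CF and 89 to 1713 in WT.

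SFTPB differed widely within the WT pairs of days 80 and 120. It lies on chromosome 3 from 57216253 to 57228146, minus strand, with 2894 bp in 12 exon blocks. In CF its level was 9.78 and 5.08 CPM at day 65, 1.39 and 6.35 CPM at day 80, 7.15 and 5.44 CPM at day 100, 2.20 and 1.19 CPM at day 120, and 2.16 and 1.38 CPM at birth. In WT it was 18.4 and 6.19 CPM at day 65, 103 and 3.03 CPM at day 80, 71.0 and 73.6 CPM at day 100, 139 and 0.937 CPM at day 120, and 32.5 and 28.7 CPM at birth. No CF library passed 10 CPM, whereas 7 of 10 WT libraries did.

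The WT day 120 libraries were the extremes of the whole set for SFTPB, at 7831 and 52 counts, a 149-fold difference in CPM. At day 80 the WT pair had 5668 and 232 counts, 34.1-fold apart. In the same pairs SCGB3A2 differed 1.38-fold at day 120 and 19.7-fold at day 80, so the gap at day 120 was not shared by that gene. Over all libraries of a genotype, SFTPB averaged 4.21 ± 2.98 CPM in CF and 47.7 ± 47.2 CPM in WT (SD, n = 10 each).

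**Figure D2:**
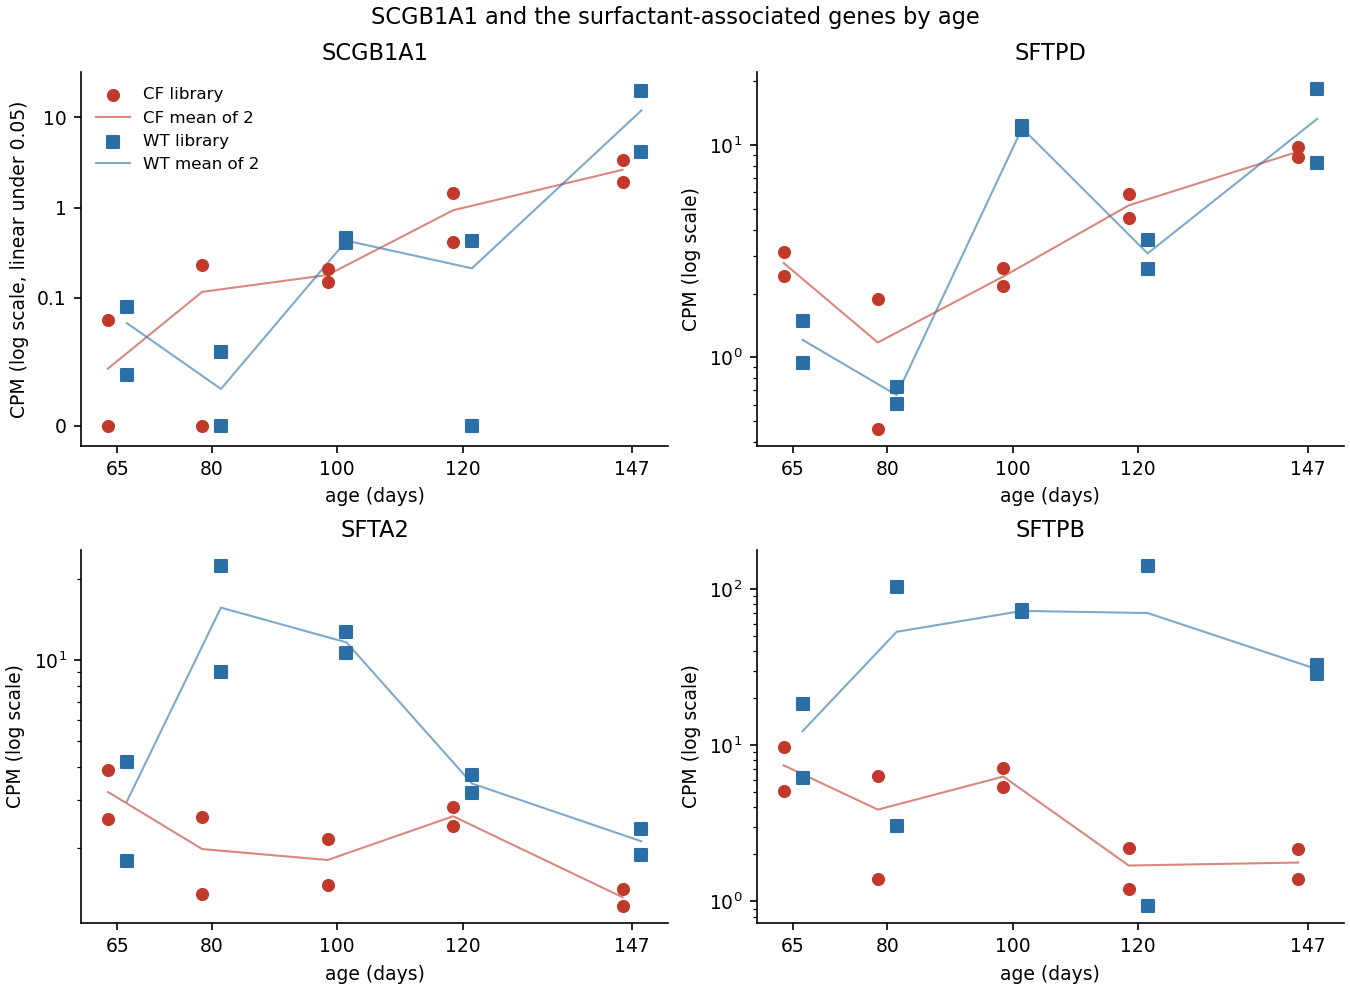
CPM of SCGB1A1 (log scale, linear under 0.05), SFTPD, SFTA2 and SFTPB (log scales) by age in days, CF points shifted left and WT points right; each point is a library and lines join the means of 2. SCGB1A1 is highest at birth, SFTA2 peaks in WT at days 80 and 100, and the WT points of SFTPB at day 120 lie at 139 and 0.937 CPM.

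Other genes known from alveolar type 2 cells ranged from no count to a level above that of SFTA2 in CF. SFTPC, the surfactant protein made by alveolar type 2 cells alone, had 0 to 26 counts in CF libraries and 0 to 14 counts in WT libraries. SFTPA1, the other surfactant collectin, had 0 to 22 counts in CF libraries and 0 to 35 counts in WT libraries. NAPSA, the protease that processes pro-SFTPB in human, had 46 to 249 counts in CF and 65 to 170 counts in WT. ABCA3 and LAMP3, of lamellar bodies, were at 8.99 to 21.6 CPM and 5.50 to 36.2 CPM in CF. In WT they were at 6.38 to 25.5 CPM and 14.3 to 32.3 CPM. SLC34A2, on the list for surfactant and lamellar bodies, was higher, at 17.7 to 186 CPM in CF and 26.9 to 220 CPM in WT. Genes of a list for alveolar type 1 cells, several of which the airway also expresses, summed to 612 to 761 CPM in CF and 558 to 1300 CPM in WT, the highest in the library with thyroid genes. The part of such cells in the levels of SFTPB and SFTA2 was not tested.

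The order of the 5 genes by level per length changed with age. At day 65 the mean TPM in CF was 4427 for SCGB3A2, 9.87 for SFTA2, 5.38 for SFTPB, 2.66 for SFTPD and 0.214 for SCGB1A1. In WT at day 65 it was 4151 for SCGB3A2, 10.4 for SFTA2, 10.2 for SFTPB, 1.33 for SFTPD and 0.465 for SCGB1A1, with SFTA2 and SFTPB not separated by their spread. At birth SCGB1A1 had moved to the second place: the mean TPM in CF was 82876 for SCGB3A2, 14.2 for SCGB1A1, 6.53 for SFTPD, 2.93 for SFTA2 and 0.987 for SFTPB. In WT at birth it was 113360 for SCGB3A2, 48.7 for SCGB1A1, 15.5 for SFTPB, 7.57 for SFTPD and 4.26 for SFTA2. At birth no neighbours in either order overlapped, and SFTPB was last in CF and stood between SCGB1A1 and SFTPD in WT.

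Averaged over the ages, SFTA2 was the member that passed the test in CF, and it was lower. Its log2 fold change was -1.33 ± 0.23 (SE), with an adjusted p of 0.0236 by edgeR's quasi-likelihood test with Benjamini-Hochberg adjustment over 20097 tested genes. By this test 0.766% of all tested genes were called, 0.458% higher and 0.309% lower in CF. SFTA2 had both CF libraries below both WT libraries at 4 of 5 ages, and at those ages, days 80, 100, 120 and 147, 10.8%, 30.0%, 7.61% and 15.6% of all tested genes did so. The call was lost on leaving out any of 10 single libraries, WT day 65 replicate 1, WT day 100 replicate 1 and both CF replicates of days 65, 100, 120 and 147, at log2 -1.40 to -1.18 and an adjusted p of 0.0503 to 0.0812 by edgeR. It was also lost with the pairs of a shared identifier summed (log2 -1.34, adjusted p = 0.164 by edgeR) and without the 4 libraries holding other tissue (log2 -1.13, adjusted p = 0.0587 by edgeR). Without the library with thyroid genes alone the log2 fold change was -1.17 and the adjusted p 0.0261 by edgeR. Over 27 alternatives the adjusted p of SFTA2 was 1.47e-06 (DESeq2) to 0.164, and 15 passed.

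At single ages SFTA2 was called at day 100, where its log2 fold change was -2.69 ± 0.55 (SE; adjusted p = 0.0302 by edgeR's quasi-likelihood test). At day 100 1.46% of tested genes were called in either direction and 0.0597% were called lower in CF. The call was lost on leaving out either CF or either WT library of day 100 or CF day 147 replicate 2 (log2 -3.00 to -2.44, adjusted p 0.0515 to 0.301 by edgeR), with the pairs of a shared identifier summed (adjusted p = 0.266) and with the epithelial score as a covariate (log2 -2.47, adjusted p = 0.0558). At day 80 the difference was of like size, -2.99 ± 0.55, but missed the threshold (adjusted p = 0.278 by edgeR). It passed in 3 of 27 alternatives, with DESeq2 (adjusted p = 4.28e-06) and in edgeR without WT day 80 replicate 1 or CF day 80 replicate 2. These edgeR fits keep, as the single library of its group, the WT library with thyroid genes or the CF library with skeletal muscle genes. Without the 4 libraries holding other tissue the log2 fold change of day 80 was -1.79 and did not pass. At days 65, 120 and 147 it was 0.12, -0.41 and -0.69, none called. A test for a change of the CF difference with age gave SFTA2 a p of 0.00285 and an adjusted p of 0.261 by edgeR, where 0.0697% of tested genes were called. Of 27 alternatives DESeq2 alone passed here (adjusted p = 6.57e-04), and the highest adjusted p was 1.00.

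SFTPB had the largest fold difference of the 5, at log2 -3.50 ± 0.74 (SE) over the mean of the ages, and just missed the threshold (adjusted p = 0.0516 by edgeR's quasi-likelihood test). By age the log2 fold change was -0.73 (day 65), -3.78 (day 80), -3.52 (day 100), -5.37 (day 120) and -4.11 (birth), and none was called. Both CF libraries were below both WT libraries at days 100 and 147, as they were for 30.0% and 15.6% of all tested genes. At the other ages the pairs overlapped, and there the difference depended on which WT library was kept. Without WT day 80 replicate 1, which leaves the WT library with thyroid genes, the log2 fold change of day 80 was 0.39. Without the 4 libraries holding other tissue, which leaves 1 library of each genotype at day 80, it was -4.02. Without WT day 120 replicate 1 the value of day 120 was 0.85. Over the mean of the ages SFTPB passed without WT day 80 replicate 2 (log2 -3.69, adjusted p = 0.0221 by edgeR) or without WT day 120 replicate 2 (log2 -3.71, adjusted p = 0.0147 by edgeR), and was -2.26 without WT day 120 replicate 1. It also passed with DESeq2 (adjusted p = 1.23e-06) and with no filter on low counts (adjusted p = 0.0483 by edgeR), the 4 that passed of 27 alternatives, whose adjusted p reached 0.303.

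SCGB3A2 did not pass, with a log2 fold change of -1.06 ± 0.49 (SE; adjusted p = 0.444 by edgeR's quasi-likelihood test) over the mean of the ages. For days 65, 80, 100, 120 and 147 it was 0.29, -2.32, -2.08, -0.29 and -0.92. In CPM the genotypes were separate only at day 100, with CF below, as were 30.0% of all tested genes. The value of day 80 was 1.09 without WT day 80 replicate 1, which leaves the WT library with thyroid genes. It was -2.61 without the 4 libraries holding other tissue. That of birth was 0.68 without WT day 147 replicate 2. Over the mean of the ages the log2 fold change was -0.40 without WT day 80 replicate 1 and -1.16 without the 4 libraries holding other tissue. At day 100 the epithelial sums were 7910 and 8210 CPM in CF and 13900 and 13200 CPM in WT, and with the epithelial score as a covariate the value of day 100 was -1.0 and that over the ages -0.65.

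SFTPD had no difference over the mean of the ages, at -0.01 ± 0.26 (SE; adjusted p = 1.00 by edgeR's quasi-likelihood test), and its sign turned with age. Both CF libraries were above both WT libraries at days 65 and 120, where 23.8% and 8.91% of tested genes did so, and below them at day 100, where 30.0% of tested genes did so and 40.5% had both CF libraries above. The log2 fold changes with their SE for days 65, 80, 100, 120 and 147 were 1.2 ± 0.56, 0.83 ± 0.57, -2.32 ± 0.57, 0.75 ± 0.55 and -0.51 ± 0.55. The value of day 100 missed the threshold (adjusted p = 0.0722 by edgeR) and passed without either CF library of day 80 (adjusted p 0.0262 and 0.0272), without the 4 libraries holding other tissue (adjusted p = 0.0453) and with DESeq2 (adjusted p = 6.58e-04), while the highest of 27 alternatives was 0.478. The test for a change of this difference with age gave a p of 0.00461 and an adjusted p of 0.321 by edgeR, and it passed with DESeq2 (adjusted p = 0.00143) but in no other of 27 alternatives (highest 1.00).

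SCGB1A1 was not called in any contrast of CF with WT by edgeR, with 0.14 ± 0.67 (SE) on the log2 scale over the mean of the ages (adjusted p = 0.981 by edgeR's quasi-likelihood test). Its CF libraries were both below its WT libraries at day 100 and at birth, where 30.0% and 15.6% of all tested genes did so. The fitted log2 fold change at birth was -2.18 ± 1.49. Earlier ages rest on at most 78 counts in a library, where the fitted values ran from -1.25 to 2.74.

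By edgeR no member was called at days 65, 80, 120 or 147, whereas DESeq2 called SFTA2 at day 80. By edgeR 0.00995% of tested genes were called at day 65 (0.00498% higher and 0.00498% lower in CF), 0.0% at day 80, 0.0% at day 120 and 0.0945% at day 147 (0.0498% higher and 0.0448% lower in CF). At days 80 and 120, where edgeR called 0 genes, 1924 and 279 genes had an unadjusted p under 0.05 and DESeq2 called 693 and 17. A miss at a single age is thus a miss in a comparison of 2 against 2 libraries and does not show equal levels.

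**Figure D3:**
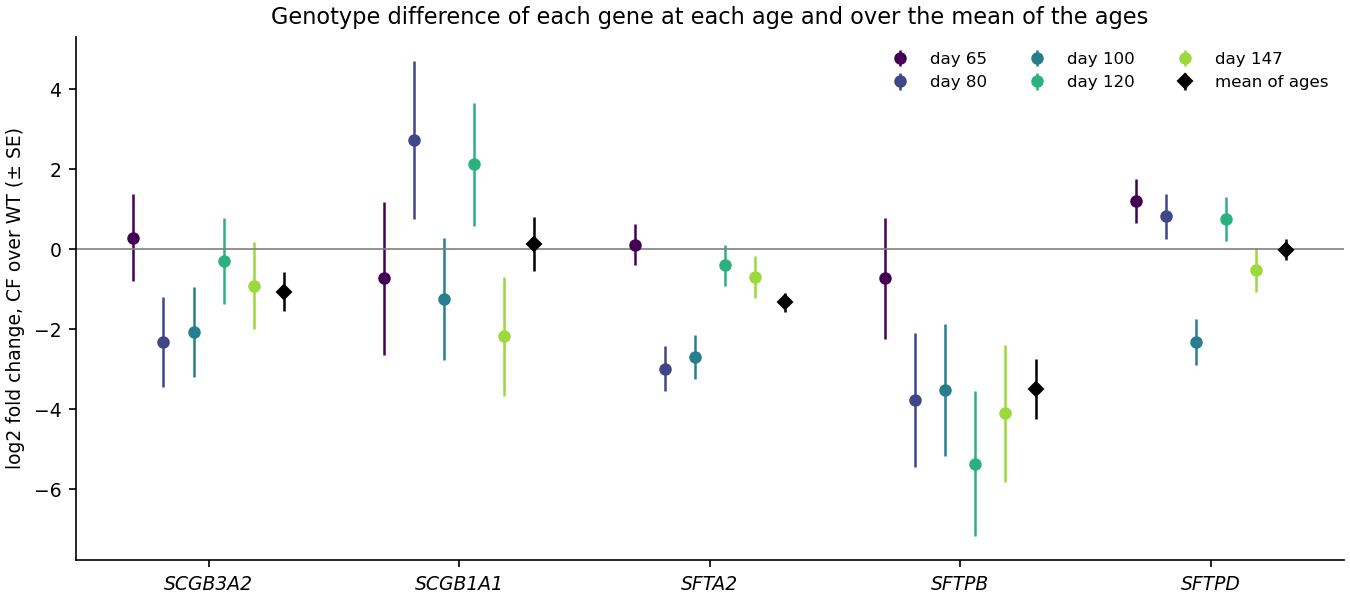
Log2 fold change of CF over WT with its SE for each gene, in colour at each age and in black over the mean of the ages, from the edgeR fit to all 20 libraries. SFTA2 at -1.33 and SFTPB at -3.50 over the mean of the ages lie below 0, and SFTPD lies at -2.32 at day 100 and above 0 at days 65, 80 and 120.

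SCGB3A2, SCGB1A1 and SFTPD went up and down together over the 20 libraries, whereas SFTA2 and SFTPB did not follow them. On log2 CPM, Pearson's r was 0.737 between SCGB1A1 and SCGB3A2, 0.723 between SFTPD and SCGB3A2 and 0.81 between SFTPD and SCGB1A1. It was 0.475 between SFTPB and SFTA2, and between -0.31 and 0.24 for the pairs across these groups. These are descriptions over libraries that share ages, genotypes and tissue makeup.

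Among 12995 genes compared, the course of SCGB3A2 was most like that of SELENBP1 (r = 0.948), ACSL5 (0.944), PCCA (0.937), NADK (0.935) and AGR2 (0.932). AGR2 encodes a chaperone of the endoplasmic reticulum that mucus-secreting cells use, and ACSL5 activates long-chain fatty acids. AGR2 stood at 530 and 587 CPM in CF at birth and 385 and 1470 CPM in WT at birth, against day 65 levels of 160 and 102 CPM in CF and of 166 and 91.6 CPM in WT. SCGB1A1 was most like BPIFB1 (r = 0.869), a secreted protein of airway surface fluid, then PIK3C2G and POR (0.863 each), BCL3 (0.861) and PYGL (0.86). POR is the electron donor of the cytochrome P450 enzymes, which club cells hold in quantity in mouse.

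SFTPD was most like ANO1 (r = 0.931), a calcium-activated chloride channel, then CH25H (0.905), ETS2 (0.899), CFI and ACSS3 (0.894 each). CFI encodes complement factor I. SFTA2 was most like TRIM11 (r = 0.875), DBR1 (0.871), RPN2 (0.851), GSTA1-1 (0.835) and ID4 (0.81). Like SFTA2, GSTA1-1, a glutathione transferase, was highest in WT day 80 replicate 2, at 205 CPM, against 101 CPM in the other WT library of that day. SFTPB had the lowest top r of the members: its nearest genes were MOBP (r = 0.807), RBM46 (0.722), MEP1B (0.719), AP3M2 (0.692) and MYRFL (0.683), most of them low, with MOBP at no more than 6.10 CPM.

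Other genes of secretory cells rose strongly between day 65 and birth. In the contrast of birth with day 65 over the mean of the genotypes, edgeR called 18.6% of all tested genes, 8.77% higher and 9.86% lower at birth. Of 50 tested genes of a list for club and secretory cells, members aside, 18 rose and 2 fell, and the median log2 fold change was 0.94, against -0.03 over all tested genes. PIGR, the receptor that carries antibodies of mucosal secretions across the epithelium, rose by 9.64 ± 0.56 (SE; adjusted p = 5.09e-06 by edgeR's quasi-likelihood test). MSMB, a small secreted protein, rose by 9.05 ± 0.96, BPIFA1, a secreted defence protein of the upper airway, by 7.62 ± 1.02, and LTF, the iron-binding lactoferrin, by 6.49 ± 0.54. The rise of BPIFA1 was uneven between the genotypes. In CF it went from 0.0993 and 0.419 CPM at day 65 to 3.18 and 2.47 CPM at birth. In WT it went from 0.279 and 0.12 CPM to 155 and 1310 CPM. The membrane mucin MUC4 (-3.65 ± 0.62) and the laminin chain gene LAMC3 (-1.71 ± 0.34) fell. The count of the list was 13 without either WT library of day 65 and 15 with the pairs of a shared identifier summed.

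Regulators of secretory fate moved in both directions. Of 47 tested genes of that list, 11 rose and 5 fell between day 65 and birth, with a median of 0.01. SPDEF, the factor that drives goblet cell differentiation, rose by 2.92 ± 0.60 (adjusted p = 0.00527 by edgeR's quasi-likelihood test). CREB3L4, a factor bound to the endoplasmic reticulum membrane, rose by 2.44 ± 0.33, FOXA3 by 2.70 ± 0.73 and ELF3, an epithelial ETS factor, by 2.23 ± 0.40. The Notch receptor gene NOTCH3 fell by 1.6 ± 0.31 on the log2 scale, and its pathway genes HEY2 and RBPJ by 1.45 ± 0.36 and 0.89 ± 0.22. YAP1, the Hippo pathway coactivator, fell by 0.71 ± 0.22. The calls of FOXA3, HEY2, RBPJ and YAP1 were lost on leaving out single libraries, in 4, 3, 4 and 12 of 20 such fits. The count of the list was 9 without WT day 65 replicate 1 or WT day 147 replicate 2, 10 without CF day 65 replicate 2 or CF day 147 replicate 2, and 7 with the pairs of a shared identifier summed.

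Genes of surfactant and lamellar bodies, members aside, did not move as a group. Of 18 tested, PGC and DMBT1 rose, by 2.78 ± 0.83 and 2.27 ± 0.61, and PLA2G1B and CKAP4 fell, by 1.76 ± 0.52 and 0.84 ± 0.21 on the log2 scale. The median was 0.14. PGC, a pepsinogen also made by alveolar type 2 cells, was below 1 CPM in every library, and DMBT1 is a secreted scavenger receptor that binds SFTPD in human. ABCA3, which pumps lipid into lamellar bodies, and LAMP3, a membrane protein of these bodies, were not called, at 0.12 ± 0.27 and 0.49 ± 0.33. No gene of this list was called with the pairs of a shared identifier summed, or without CF day 65 replicate 2, and 2 were called without the 4 libraries holding other tissue.

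Between CF and WT these lists held few calls. Over the mean of the ages 0 of 18 surfactant genes and 0 of 50 secretory cell genes passed in edgeR, with medians of -0.02 and -0.13 against 0.01 over all tested genes. In these lists 1 and 6 genes had an unadjusted p under 0.05, and DESeq2 called 0 and 3. Of 47 regulators CREB3L4 passed and was lower in CF, at log2 -1.0 ± 0.20 (adjusted p = 0.0428 by edgeR's quasi-likelihood test). Its level at day 100 was 3.52 and 3.50 CPM in CF and 13.9 and 16.8 CPM in WT, and at birth it was 20 and 18.9 CPM in CF and 25.4 and 39.4 CPM in WT. The call was kept on leaving out either library of day 80 in either genotype or WT day 147 replicate 1, and was lost in the other 15 of 20 such fits (adjusted p 0.0724 to 0.120 by edgeR). It was also lost with the replicate number as a block, with the pairs of a shared identifier summed and without the 4 libraries holding other tissue. At day 100 edgeR's quasi-likelihood test called PIGR (log2 -3.37 ± 0.59, adjusted p = 0.0155) and CREB3L4 (-2.13 ± 0.46, 0.0424) lower in CF. LAMC3 was called higher (2.42 ± 0.50, 0.0333), and 0 surfactant genes were called. PIGR was then at 46.1 and 22.7 CPM in CF and 240 and 470 CPM in WT, whose pair shares an identifier. Of all tested genes 0.0597% were called lower and 1.4% higher at that age.

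Of 6 textbook regulators of airway secretory cells, none passed over the ages by edgeR, and SPDEF passed with DESeq2 (adjusted p = 0.0443), the 1 of its 27 alternatives that did (highest 0.625). NKX2-1, which binds the promoters of secretoglobin and surfactant genes in mouse and human, had a log2 fold change of -0.68 ± 0.29 (adjusted p = 0.404 by edgeR's quasi-likelihood test). It was highest in the library with thyroid genes, at 83.7 CPM against 36.9 CPM in the other WT library of day 80; the thyroid also expresses this gene. FOXA2 was at -0.81 ± 0.32 (adjusted p = 0.352), FOXA1 at 0.03 ± 0.23 (adjusted p = 0.995) and SPDEF at -1.08 ± 0.36 (adjusted p = 0.236), by edgeR. HES1 and NOTCH2, of the Notch pathway that sets secretory against ciliated fate, were at -0.07 ± 0.16 and 0.02 ± 0.26. At day 100, FOXA2 stood at 10.1 and 10.5 CPM in CF and 35.6 and 32.2 CPM in WT. SPDEF stood at 5.81 and 5.75 CPM in CF and 31.5 and 34.1 CPM in WT. The WT pair is the one with a shared identifier and the higher epithelial sums. Neither gene was called at that age (adjusted p = 0.360 and 0.199 by edgeR's quasi-likelihood test). NKX2-1, FOXA1 and HES1 also had both CF libraries below both WT libraries at day 100, as had 30.0% of all tested genes. NOTCH2 had both CF libraries above, at 155 and 149 CPM against 73.4 and 102 CPM in WT, as had 40.5%.

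At birth 0 of the 50 secretory cell genes were called between CF and WT by edgeR, and 8 had an unadjusted p under 0.05. Their median log2 fold change was -0.26, against -0.06 over all tested genes, and 19 of the 50 were above 0. BPIFA1, BPIFB1 and LTF are given for this age after their values were seen. BPIFA1 was at 3.18 and 2.47 CPM in CF and at 155 and 1310 CPM in WT, and its log2 fold change of -8.02 ± 1.43 missed the threshold (adjusted p = 0.0547 by edgeR's quasi-likelihood test). It passed with DESeq2 (adjusted p = 8.13e-11), with the epithelial score as a covariate (0.0429) and without either WT library of day 80 (0.0430 and 0.0407), and was -5.76 without WT day 147 replicate 2. Over 27 alternatives its adjusted p reached 1.00. BPIFB1, the gene most like SCGB1A1, was at 88.4 and 98.5 CPM in CF and at 451 and 1140 CPM in WT. LTF was at 84.6 and 127 CPM in CF and at 416 and 340 CPM in WT. All 3 had both CF libraries below both WT libraries at birth, as had 15.6% of all tested genes. Earlier the order was not the same. Both CF libraries were higher for LTF at days 65 and 120 (129 and 124 CPM against 30.5 and 26.8 CPM at day 120). They were also higher for BPIFB1 at days 65, 80 and 120 and for BPIFA1 at day 80. For days 65, 80 and 120 so were 23.8%, 11.5% and 8.91% of all tested genes. At day 100 they were lower for LTF, as for 30.0%. At the other earlier ages the pairs overlapped. In WT replicate 2 of birth, BPIFA1, BPIFB1, SCGB1A1 and SCGB3A2 were all higher than in replicate 1. The epithelial sums were 10300 and 10100 CPM in CF and 5290 and 12000 CPM in WT at birth. With the epithelial score as a covariate the log2 fold change at birth was -8.18 for BPIFA1, -2.65 for SCGB1A1 and -1.28 for SCGB3A2.

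**Figure D4:**
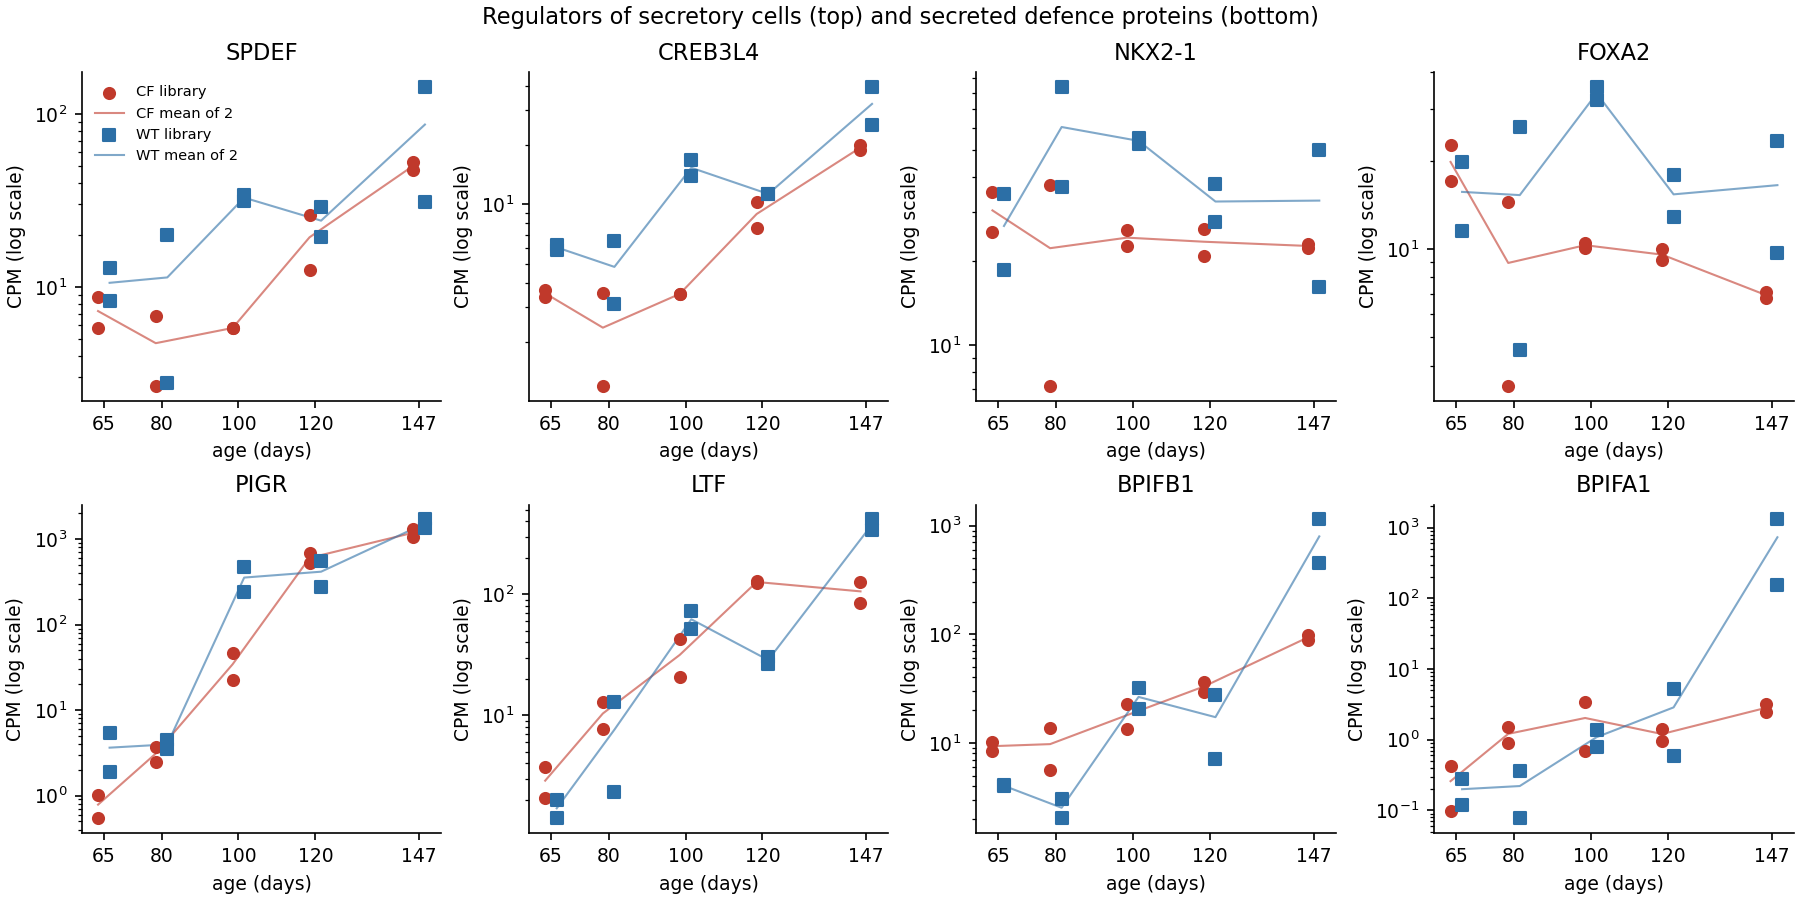
CPM (log scales) by age in days of 4 regulators of secretory cells (top) and 4 secreted or epithelial defence genes (bottom), CF points shifted left and WT points right; each point is a library and lines join the means of 2. At day 100, where the WT pair shares an identifier, CREB3L4 and PIGR are called lower in CF by edgeR. SPDEF, NKX2-1 and FOXA2 are lower at that age and not called, and 30.0% of all tested genes have both CF libraries below both WT libraries. PIGR climbs in both genotypes, and BPIFA1 at birth is at 3.18 and 2.47 CPM in CF and at 155 and 1310 CPM in WT.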

How the data were processed

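RNA sequencing of sheep trachea gave 20 libraries, 10 of CF and 10 of WT, placed in groups by their titles. The submitters' processing notes name STAR 2.6 for alignment, and featureCounts 1.6.3 and Subread for counting. The authors deposited raw counts per gene, in 1 table per genotype. The sources used here give no genome build, annotation release, strand setting or read pairing. Of 8432 genes with an identifier in place of a symbol, 501 were given a symbol. It came from the RefSeq table of ARS-UI_Ramb_v3.0, used for names only. No counted gene bore the symbol SCGB3A1, CYP2F1 or CYP4B1, so these were not analysed here.

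Counts were fitted with edgeR 4.0.16 in R 4.3.3: filterByExpr over the 10 groups (20097 genes), TMM scaling, a coefficient per group, and glmQLFit and glmQLFTest with robust estimation. P-values were adjusted after Benjamini-Hochberg across the tested genes, at a threshold of 0.05, and SE is the log2 fold change over the root of F. CPM use the TMM library sizes. Likeness used log2 CPM with a prior count of 2, over symbol-bearing genes whose mean log2 CPM reached 1. The code was tested on simulated data.

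The members and the gene lists were chosen with earlier results of these data known. Named were the 5 members, 5 genes most like each, a set of textbook regulators and markers, and up to 4 called genes per list and direction with the largest fold. Replicates differed by more than counting noise (chi-square per gene 39.3 to 1740), so none was counted as a copy. Alternatives were DESeq2 1.42.0, median of ratios scaling, no filter and a replicate block. Others were pairs of a shared identifier summed (CF at birth and WT at day 100 only) and leaving out libraries. A further one was an epithelial score (the mean log2 CPM of the epithelial genes in a library) as a covariate. The alternatives for the lists, their genes and BPIFA1 at birth were added after seeing the data.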

Additional observations from a re-analysis of the deposited data

Results flagged for a closer look

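The genotype difference of SFTPD pointed in opposite ways at different ages. Between days 65 and 100 the log2 fold changes of CF over WT were 3.52 apart, with both CF libraries above both WT libraries at day 65 and below them at day 100. Between days 120 and 100 they were 3.07 apart, with both CF libraries above at day 120. These pairs of ages were not tested as such. The edgeR test that the difference is the same at all ages did not pass for SFTPD (adjusted p = 0.321), and that of DESeq2 did (adjusted p = 0.00143). Groups of 2 libraries are too small for a search for outlying samples.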

How the results depend on the processing

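With 2 libraries a group, many counts of calls moved. The reported fit called 154 genes over the mean of the ages, 2 at day 65, 0 at day 80, 294 at day 100, 0 at day 120, 19 at day 147, 14 for a change with age and 3745 between day 147 and day 65. With DESeq2 829 genes were called over the mean of the ages, 150 at day 65, 693 at day 80, 1210 at day 100, 17 at day 120, 420 at day 147 and 820 for a change with age, and SFTPB passed (-3.52). Median of ratios scaling gave 8 at day 147 and 2 for a change with age. With no filter 6 were called at day 147 and SFTPB passed (-3.50). The replicate numbers do not pair the samples (deviations correlated at -0.588 to 0.733 over 45 pairs of groups, median 0.0231); the fit with the replicate block called 1 gene at day 65, 3 at day 147 and 1 for a change with age, put SFTPD over the ages at 0.00062, and left SFTA2 called (adjusted p = 0.0417 by edgeR).

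With the pairs of a shared identifier summed, 2 genes were called over the mean of the ages, 0 at day 65, 0 at day 100, 1 at day 147, 0 for a change with age and 1858 between day 147 and day 65; SFTA2 was at -1.34 and not called, and NOTCH2 at -0.023. By edgeR 568, 1226 and 658 genes still had an unadjusted p under 0.05 in those with 0. Without the 4 libraries holding other tissue the counts were 49 over the ages, 0 at day 65, 7 at day 147, 0 for a change with age and 2349 between day 147 and day 65, with 350 and 1217 genes at an unadjusted p under 0.05 in those with 0. SFTA2 was then at -1.13 and not called, SFTPD over the ages at 0.21, SCGB1A1 at day 65 at 1.10, SFTA2 at day 65 at -0.093, HES1 at 0.033, LAMP3 at 0.22 and ABCA3 between day 147 and day 65 at -0.041. With the epithelial score as a covariate 0 genes were called at day 65 (683 at an unadjusted p under 0.05), 1 at day 80, 33 at day 147 and 1 for a change with age, with SFTPD over the ages at 0.040 and SCGB1A1 at day 100 at 0.067.

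Leaving out each library in turn gave 51 to 319 calls over the mean of the ages, 0 to 46 at day 65, 0 to 352 at day 80, 0 to 482 at day 100, 0 at day 120, 1 to 56 at day 147, 0 to 216 for a change with age and 2052 to 4768 between day 147 and day 65. The log2 fold change over the ages ran from -1.32 to -0.40 for SCGB3A2, -1.06 to 1.48 for SCGB1A1, -1.46 to -1.17 for SFTA2, -3.82 to -2.26 for SFTPB and -0.30 to 0.12 for SFTPD. Values that changed sign were SCGB3A2 at days 65 (-0.31 to 1.34), 80 (-3.53 to 1.09), 120 (-0.91 to 0.12) and 147 (-1.65 to 0.68), SCGB1A1 at days 65 (-4.66 to 0.19) and 80 (-3.15 to 5.89), SFTA2 at day 65 (-0.37 to 0.85), SFTPB at days 65 (-1.31 to 0.26), 80 (-5.29 to 0.39) and 120 (-6.38 to 0.85), and SFTPD at days 80 (-0.54 to 1.52) and 147 (-0.97 to 0.20). Over the ages FOXA1 (-0.22 to 0.24), HES1 (-0.16 to 0.042), NOTCH2 (-0.13 to 0.27), LAMP3 (-0.30 to 0.043) and MUC5B (-0.93 to 0.99) did so, and between day 147 and day 65 NKX2-1 (-0.54 to 0.23), ABCA3 (-0.067 to 0.37) and NAPSA (-0.011 to 0.25). The cause of these changes was not tested. A group left with 1 library was assumed to vary like the others.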

Other observations

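SCGB1C1, the other secretoglobin found among 8 searched by symbol, stayed low, at 33 to 163 counts in CF libraries and 6 to 122 counts in WT libraries. MUC5B, the gel-forming mucin of the airway, was uneven within groups: at birth it stood at 19.1 and 2.43 CPM in CF and at 20.6 and 0.862 CPM in WT, and at day 120 at 0.746 and 7.69 CPM in CF and at 5.90 and 0.486 CPM in WT. Of 28 tested genes of multiciliated cells, the cells that share the airway lining with the secretory ones, 17 were higher and 0 lower at birth than at day 65, with a median log2 fold change of 1.5. For the genotypes, averaged over the ages, edgeR called 0 of the 28, and 1 had an unadjusted p under 0.05.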
